A study of Mus musculus with 6 samples.

Results

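The AP-1 family of transcription factors was examined in forebrain RNA of mice, as the 7 genes Fos, Fosb, Fosl1, Fosl2, Jun, Junb and Jund. They were chosen by gene symbol, and all 7 were found among the 23282 entries of the deposited count tables. Each library came from 1 hemisphere of the forebrain of a male C57BL/6J mouse of 8 to 10 weeks, without olfactory bulb and cerebellum. The 3 mice labelled water avoidance stress (WAS) spent 1 h on a small platform surrounded by water, and the 3 mice labelled control spent 1 h on the same platform in a container without water. Both groups therefore shared the handling and the new place, and no mouse left in its home cage was analysed here. The comparison asks how the RNA of the forebrain differed at the end of the stress period.

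AP-1 is a pair of proteins held together by leucine zippers, in which a Fos protein binds a Jun protein, or 2 Jun proteins bind each other. The pair attaches to short DNA elements next to the genes it regulates. In neurons, transcription of Fos, Fosb, Jun and Junb rises within minutes of strong synaptic input or calcium entry, through kinases that act on factors already bound to their promoters, and the mRNAs are short-lived. Fos mRNA is widely used as a mark of recently active neurons, and Jund is known for steadier expression.

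The promoters of the 3 members with the smallest p-values below are shown, because some known signal-responsive elements of such genes lie close to the transcript start. Each line gives the 250 bases before the RefSeq transcript start on GRCm38.p6, read 5′ to 3′ in the direction of the gene, with motif matches in capitals. The windows lie at chr4:95052223-95052472 on the minus strand for Jun, chr8:84978749-84978998 on the minus strand for Junb and chr12:85473640-85473889 on the plus strand for Fos.
Jun: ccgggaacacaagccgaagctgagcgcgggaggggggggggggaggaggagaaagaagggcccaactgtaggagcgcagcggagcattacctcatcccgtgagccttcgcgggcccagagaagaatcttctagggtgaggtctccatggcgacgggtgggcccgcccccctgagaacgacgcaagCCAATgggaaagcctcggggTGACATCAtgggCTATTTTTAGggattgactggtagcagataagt
Junb: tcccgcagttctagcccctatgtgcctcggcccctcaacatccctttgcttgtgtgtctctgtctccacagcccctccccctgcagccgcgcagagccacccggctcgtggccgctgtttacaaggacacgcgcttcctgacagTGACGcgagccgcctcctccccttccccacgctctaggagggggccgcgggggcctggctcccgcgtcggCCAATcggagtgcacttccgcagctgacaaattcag
Fos: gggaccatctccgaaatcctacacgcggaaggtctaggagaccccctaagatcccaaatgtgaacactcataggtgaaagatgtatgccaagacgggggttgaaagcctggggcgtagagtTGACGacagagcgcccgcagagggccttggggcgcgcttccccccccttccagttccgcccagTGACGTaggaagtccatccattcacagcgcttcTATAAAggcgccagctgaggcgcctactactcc

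Several motifs were searched on both strands. The full cAMP response element (CRE) was searched as TGACGTCA. Its core was searched as TGACGT, and a shorter form contained in both as TGACG. The classical AP-1 element was searched as TGACTCA. The variant TGACATCA is known from the Jun promoter, where Jun binds together with ATF2. The TATA box was searched as TATAAA. The CCAAT box was searched as the letters of its name, and the CArG box of serum response factor and the MEF2 site by name. Positions count back from -1, the base before the start.

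Jun held its variant AP-1 element at -45 to -38, a match present in 2.93% of the 32851 RefSeq windows of this length, and a MEF2 site at -33 to -24, present in 2.92%. It also held a CCAAT box at -65 to -61, a motif found in 33.8% of windows. Fos held the CRE core at -66 to -61, present in 6.47% of windows, a further short CRE match at -129 to -125 (17.8% of windows) and a TATA box at -33 to -28 (12.4%). Junb held a short CRE match at -106 to -102 and a CCAAT box at -36 to -32, and Fosb held a short CRE match at -60 to -56. The full CRE (1.55% of windows), the classical AP-1 element (4.46%) and the CArG box (1.47%) had no match in the windows of Jun, Junb, Fos, Fosb and Fosl2. Bases farther from the start than 250 were not searched, so these genes may hold such elements there. Fosl2 had no match to any of the motifs, and its window lay inside the gene as GENCODE M21 gives it. The RefSeq window of Jund ended 1210 bases before the gene start in GENCODE M21, so it was not read as the promoter of the measured gene. The table had no entry for Fosl1.

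**Figure D1:**
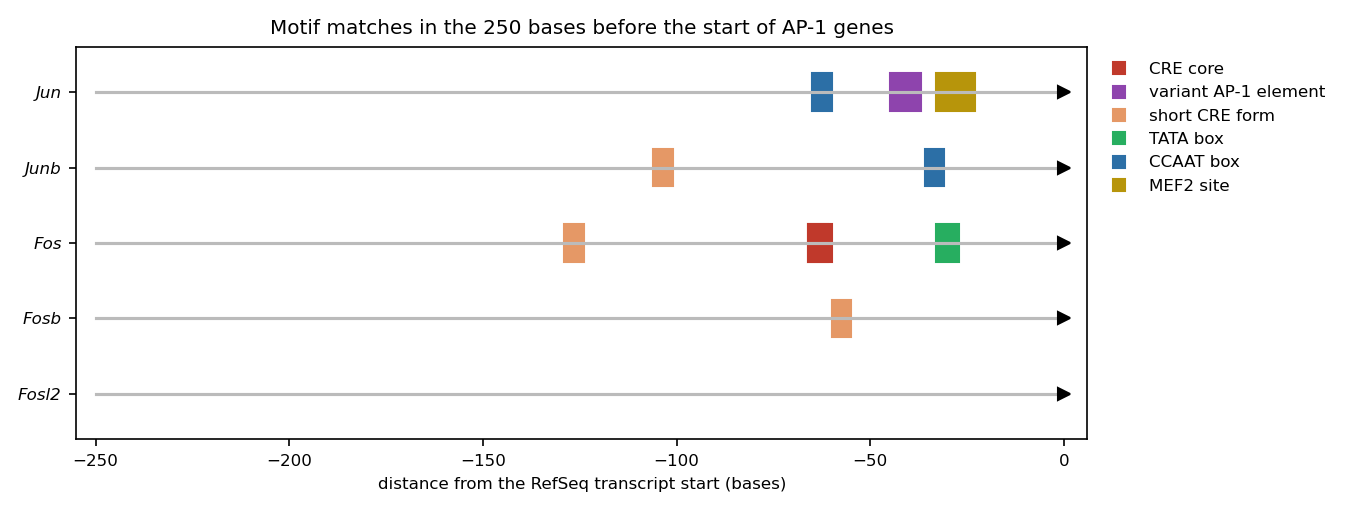
Map of motif matches (colored boxes) in the 250 bases before the transcript start of 5 AP-1 genes, with the distance from the start in bases on the horizontal axis and the start as an arrowhead. The matches of Jun, Junb, Fos and Fosb lie within 129 bases of the start, and no motif searched was found for Fosl2.

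On GRCm38 with GENCODE M21, Jun (chr4:95049034-95052222, minus strand), Junb (chr8:84974484-84978718, minus strand) and Jund (chr8:70698949-70700616, plus strand) each have 1 exon in their longest transcript. Fos (chr12:85473890-85477273, plus strand), Fosb (chr7:19302696-19310051, minus strand), Fosl1 (chr19:5447547-5455946, plus strand) and Fosl2 (chr5:32135801-32157842, plus strand) have 4 exons there. The reads came from QuantSeq, which samples the 3′ end of polyadenylated RNA, so the exonic end of each transcript was measured and the isoforms of a gene, such as the short form of Fosb, were not separated. The last 500 bases of the longest transcript of each member shared no stretch of 50 bases in the same orientation with a transcript of another gene. The sources do not say whether counting used the strand. Genes on the opposite strand overlap Jun (Junos), Jund (Gm11175), Junb (Prdx2) and Fosl1 (Ccdc85b), so the counts of these 4 members are uncertain to that extent. Prdx2, which encodes a peroxiredoxin, was at 133, 125 and 132 CPM (counts per 1000000 counts of the library total) in WAS-labelled libraries and at 117, 108 and 119.9 CPM in those labelled control. Ccdc85b lay between 21.4 and 28.0 CPM in the 6 libraries.

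Totals lay between 9248520 and 10067053 counts in WAS-labelled libraries and between 9977945 and 10502029 in those labelled control. The count columns are headed WC in WAS-labelled libraries and WS in the libraries labelled control. These headings are not explained, and the directions given here follow the labels and would be opposite with the labels swapped. Levels of brain region markers differed between libraries. Summed over 7 thalamic markers such as Tcf7l2, the level was 601, 154 and 463 CPM in WAS replicates 1, 2 and 3 against 131 to 164 CPM in the controls. Summed over 8 midbrain markers it was 62.9, 19.1 and 110.3 CPM against 12.2 to 12.7 CPM, with Slc6a4 and En1 among those at 0 in each control. Over 9 striatal markers it was 183, 2130.2 and 414 CPM against 1064 to 1457 CPM. The libraries of WAS replicates 1 and 3 thus held more thalamic and midbrain and less striatal RNA than each of the other 4. Choroid plexus markers (6 genes) were at 41.9 CPM in WAS replicate 1 and 16.2 CPM in control replicate 2, against 917 to 1239 CPM in the other libraries. In bulk RNA, fewer cells of a type and less RNA per cell cannot be told apart. Of the defining markers, neuronal Snap25 was at 1159 to 1836 CPM in the 6 libraries, Drd2 was at 0 or near it in all of them although Drd1, the other striatal dopamine receptor, was at 34.8 to 365 CPM, and the cerebellar marker Gabra6 was at 0 or near it.

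By level, Jund and Junb led the family, followed by Jun, Fosl2, Fos and Fosb, while Fosl1 was close to the limit of detection. Averaged over the 6 libraries, Jund was at 127.5 CPM, Junb at 127.3, Jun at 79.0, Fosl2 at 56.7, Fos at 34.1, Fosb at 28.9 and Fosl1 at 0.465 CPM. CPM were not divided by transcript length because 1 end is read from each transcript. Jund lay above 89.7% of the genes tested by mean level, Jun above 82.6% and Fos above 64.7%. Within a library, the ratio of Junb to Jund counts lay between 0.672 and 1.18, and that of Fosb to Fos counts between 0.651 and 1.14. The order within each of these pairs thus changed between libraries, and members were not tested against each other. The family as a whole took 531, 430 and 533 CPM in WAS replicates 1, 2 and 3, against 416, 409 and 405 CPM in controls 1, 2 and 3. In each library the 3 Jun genes together held between 2.45 and 3.11 times the counts of the 4 Fos genes.

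All 7 members passed the filter on low counts. By edgeR's quasi-likelihood test, Jun, Junb and Fos were higher in WAS-labelled libraries at an unadjusted p under 0.05, against 3.85% of all 15239 genes tested (586 genes), and 0 members were lower, against 3.4% of all genes. The unadjusted p was 0.00218 for Jun, 0.0199 for Junb and 0.0381 for Fos by edgeR. At an adjusted p of 0.05, 0 members passed with edgeR, beside 0% of all genes, 0 with limma and 1 with DESeq2, which was Jun at an adjusted p = 0.0452, among 31 genes that passed in that fit. Fosb and Fosl2 had log2 fold changes (WAS over control, here log2 ratios) above 0 without passing, Jund was near 0, and Fosl1 was too low to compare. The median log2 ratio of the 7 members was 0.29, beside 0.00088 for all genes tested, and 6 of 7 were above 0, beside 50.2% of all genes. The 6 include Fosl1, whose log2 ratio of 0.042 (SE 0.63) turned sign in 3 alternatives. With counts scaled to the library total in place of edgeR's TMM factors, the same 3-member count was obtained, but 71.1% of all genes at an unadjusted p under 0.05 were then higher in WAS-labelled libraries, against 53.1% with TMM.

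**Figure D2:**
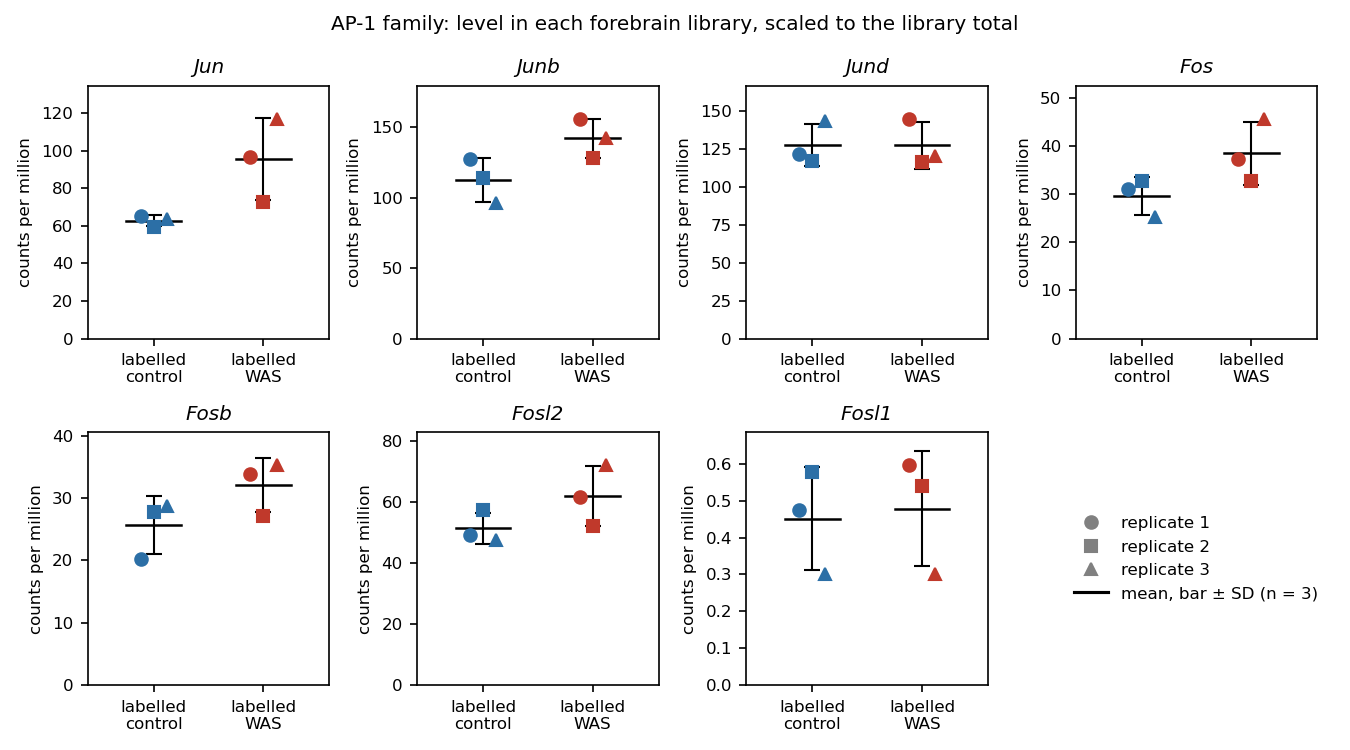
Level of each AP-1 gene in the 6 libraries, in CPM, each panel with its own axis from 0. Symbols mark the replicate number, and black lines show the mean ± SD of 3 libraries. Jun was at 72.9 to 117 CPM in WAS-labelled libraries and at 59.2 to 65.0 CPM in those labelled control, while the groups of Jund lay on top of each other.

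Among the Jun proteins, c-Jun is the main target of the JNK kinases and a strong activator, whereas JunB and JunD can restrain it. Jun had the largest difference of the family. It was measured at 96.6, 72.9 and 117 CPM in WAS replicates 1, 2 and 3, against 65.0, 59.2 and 63.6 CPM in controls 1, 2 and 3, that is 95.4 ± 22.0 CPM (SD, n = 3) against 62.6 ± 3.02 CPM (SD, n = 3). All WAS-labelled libraries lay above all those labelled control, with replicate 2 closest to the controls. The log2 ratio was 0.57 (standard error, SE, 0.14, adjusted p = 0.496 by edgeR with Benjamini-Hochberg adjustment), a fold of 1.49. This was just under the study's fold of 1.5, so 0 members met that fold together with an unadjusted p under 0.05, against 1.82% of all genes in the same direction. Jun passed that fold, a log2 ratio of 0.58, when counts were scaled to the library total, as the CPM are (0.61), and when WAS replicate 2 (0.73), the control numbered 1 (0.59) or the control numbered 3 (0.59) was left out. Within a library, the ratio of Jun to Jund counts was 0.666, 0.624 and 0.969 in WAS-labelled libraries and 0.533, 0.505 and 0.443 in those labelled control. The groups of this ratio did not overlap. The ratio of Jun to Fos counts was 2.59, 2.22 and 2.56 against 2.09, 1.81 and 2.52, and its groups overlapped through control replicate 3. Neither ratio depends on the scaling of the libraries.

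Junb, an early-response member that pairs with Fos proteins, was at 155.9, 127.8 and 142 CPM in WAS-labelled libraries and at 127.5, 114 and 96.5 CPM in the controls. The lowest WAS library and the highest control library were thus separated by 0.305 CPM. Their counts of 1182 and 1339 have exact 95% Poisson intervals of 121 to 135 and 121 to 135 CPM (counting error only), so this separation was not detectable at this depth. The log2 ratio of Junb was 0.30 (SE 0.11, adjusted p = 0.620 by edgeR with Benjamini-Hochberg adjustment).

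Jund was at 145, 117 and 120.5 CPM in WAS-labelled libraries against 122, 117 and 144 CPM in those labelled control. WAS replicate 1 and control replicate 3 were the high libraries, and the groups covered the same range. Its log2 ratio was -0.04 (SE 0.11, adjusted p = 0.968), and its highest library exceeded its lowest 1.24 times, the smallest such ratio in the family. The corresponding ratio was 1.97 for Jun and 1.81 for Fos.

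On the Fos side, proteins need a partner to bind DNA, and FosB accumulates in a stable short form under repeated stimulation. Fos was at 37.3, 32.76 and 45.7 CPM in WAS replicates 1, 2 and 3, against 31.1, 32.75 and 25.3 CPM in controls 1, 2 and 3. The values of both replicates numbered 2 were nearly equal, at 303 and 340 counts with exact 95% Poisson intervals of 29.2 to 36.7 and 29.4 to 36.4 CPM, so the groups were not separated at this depth. The log2 ratio of Fos was 0.34 (SE 0.14, adjusted p = 0.670 by the same test).

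Fosb was at 33.9, 27.1 and 35.3 CPM against 20.3, 27.8 and 28.8 CPM. Control replicate 1 was the low library, WAS replicate 2 lay inside the range of the controls, and the log2 ratio was 0.29 (SE 0.16, adjusted p = 0.742). Fosl2, which encodes Fra-2, was at 61.8, 52.2 and 72.1 CPM against 49.4, 57.3 and 47.5 CPM. Here too the groups overlapped through WAS replicate 2, and the log2 ratio was 0.23 (SE 0.13, adjusted p = 0.739). Fosl1, which encodes Fra-1, had 6, 5 and 3 counts in WAS-labelled libraries and 5, 6 and 3 counts in the controls. The intervals of these counts ran from 0.619 to 13.1 counts (exact 95% Poisson), and a difference in Fosl1 was not detectable at this depth.

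On library totals, 3 members (Jun, Junb and Fos) had all WAS-labelled libraries above all those labelled control, against 8.42% of all genes. After TMM scaling this held for Jun alone, against 6.12% of all genes. WAS replicate 2 lay below both other WAS-labelled libraries for Jun, Junb, Jund, Fos, Fosb and Fosl2. This library had thalamic markers within the range of the controls and striatal markers above it, and its part and that of tissue composition in the AP-1 values were not tested. Without it, 5 members passed an unadjusted p of 0.05, Fosb and Fosl2 having joined Jun, Junb and Fos. The share of all genes that passed, in either direction, rose with it to 13.7%, from 7.24% with all 6 libraries. The log2 ratio of Jun was then 0.73 with an adjusted p = 0.00142 by edgeR, in a fit in which 491 genes passed that adjustment. The adjusted p of Jun ran, over the alternatives tried, from 0.00142 to 0.9997.

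Without control replicate 2, 4 members passed (Jun, Junb, Fos and Fosl2), with 4.09% of all genes. Jun and Fos passed without WAS replicate 1 (6.57% of all genes), Jun and Junb without WAS replicate 3 (4.29%) or without control replicate 1 (4.97%), and Jun alone without control replicate 3 (7.22%). Single libraries also moved the size of the Fos-side values. The log2 ratio of Fosb was 0.14 without control replicate 1, that of Fosl2 was 0.11 without WAS replicate 3, and that of Fos was 0.20 without WAS replicate 3.

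**Figure D3:**
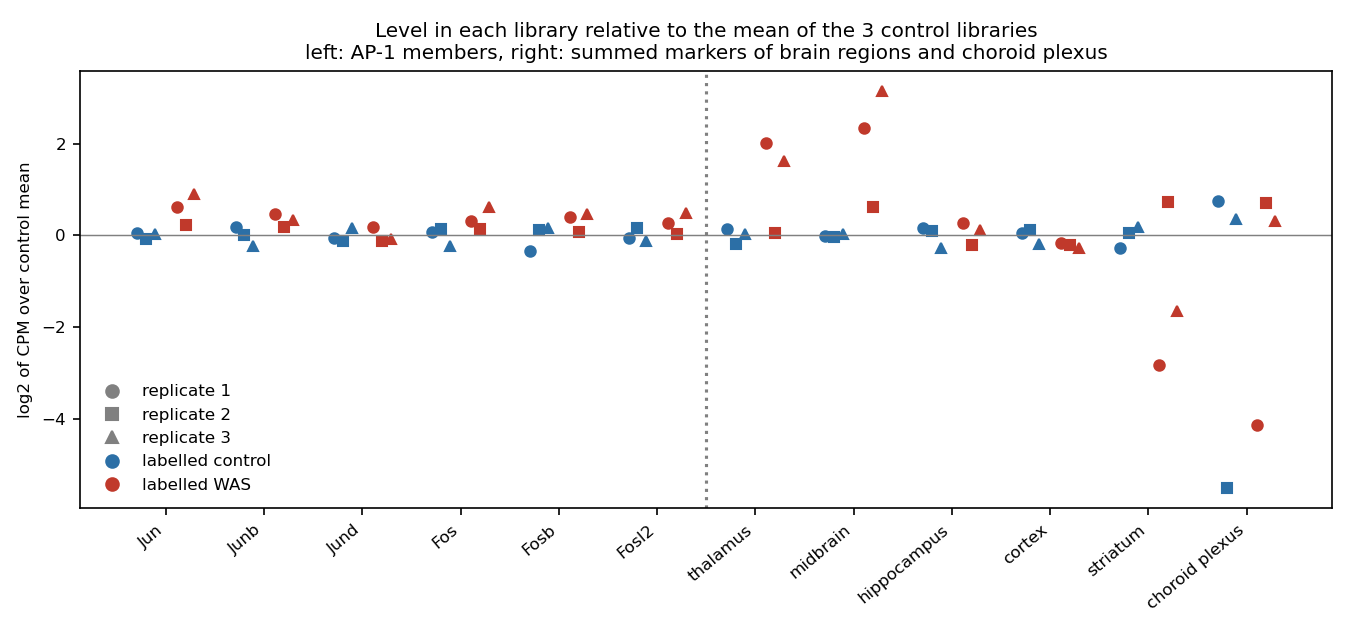
Level of 6 AP-1 genes (left) and of summed markers of brain regions and choroid plexus (right) in each library, as log2 of CPM over the mean of the 3 control libraries. Symbols mark the replicate number and colors the labelled group. WAS replicates 1 and 3 stand 2.01 and 1.63 above the control mean for thalamic markers and at -2.81 and -1.64 for striatal markers, while WAS replicate 2 is at 0.045 for thalamic markers.

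**Figure D4:**
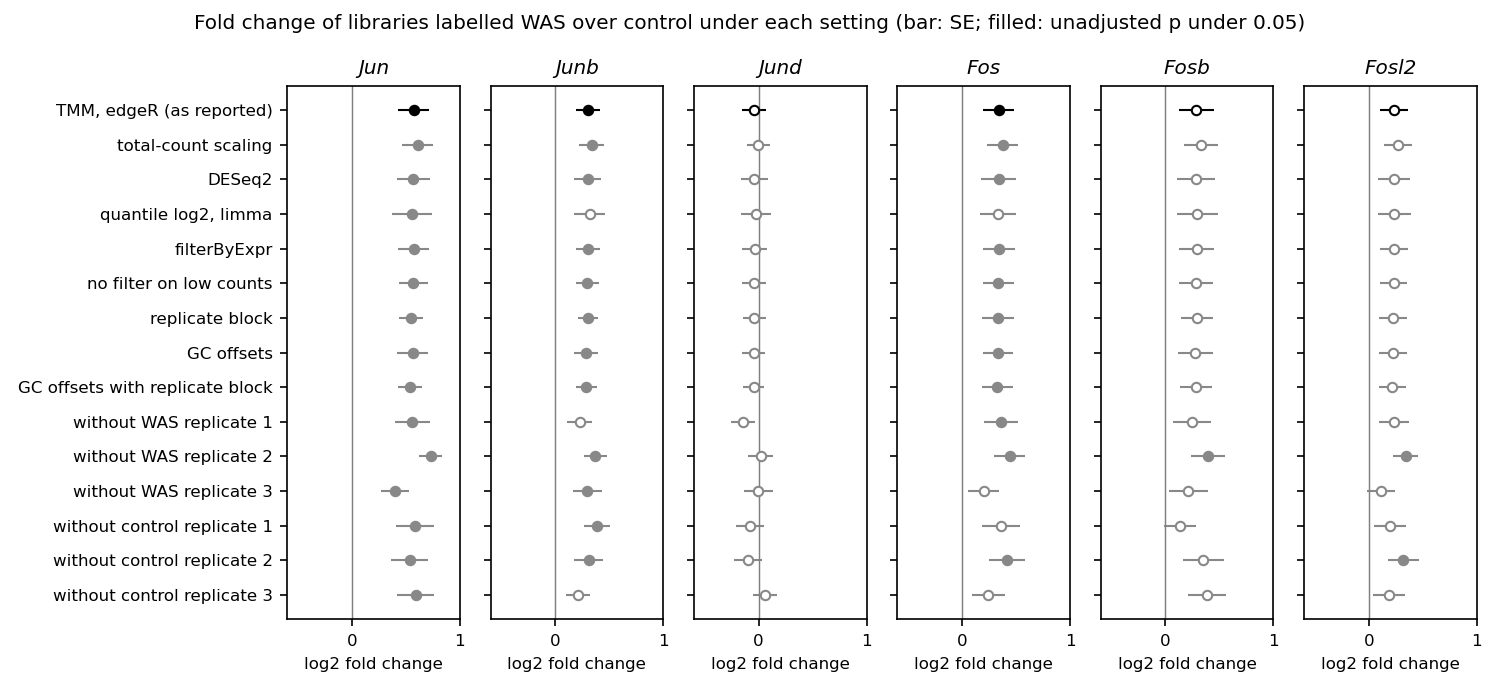
Log2 fold change of WAS-labelled libraries over those labelled control for 6 AP-1 genes (horizontal axis) under the ways of processing listed at the left. Bars are SEs, and filled points have an unadjusted p under 0.05. Of the settings plotted, Jun is largest without WAS replicate 2 (0.73) and smallest without WAS replicate 3 (0.40).

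The genes whose levels followed each member most closely over the 6 libraries were looked up among 9404 genes with a mean count of at least 100, by Pearson's r of log2(CPM + 1). For Jun these were Gabarapl2 (r = 0.995), Plekhb1 (r = 0.994) and Ncam1 (r = 0.993). For Junb they were Usp54 (r = 0.997), Slc13a3 (r = 0.990) and Ogfod2 (r = 0.990), and for Fos Bloc1s4 (r = 0.986), Ptprf (r = 0.982) and Rab10 (r = 0.979). Fosb was followed by Plagl1 (r = 0.993), Dhrs4 (r = 0.992) and Snx30 (r = 0.988), Fosl2 by Trp53i11 (r = 0.995), Git2 (r = 0.992) and Dock9 (r = 0.989), and Jund by Serbp1 (r = 0.998), Chchd6 (r = 0.997) and Map3k4 (r = 0.991). Fosl1, with 3 to 6 counts a library, was followed by Alg6 (r = 0.985), U2surp (r = 0.979) and Aff1 (r = 0.978). No gene appeared for more than 1 of the 7 members. Each r is the top of a search over 6 libraries and describes these libraries only.

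Of 28 other bZIP proteins that can pair with AP-1 members or bind related elements, 24 were tested, and 0 were higher and 2 lower at an unadjusted p under 0.05 by edgeR, where 3.85% of all genes were higher and 3.4% lower. The lower ones were Jdp2 and Atf6. Jdp2 encodes the Jun dimerization protein, which binds Jun proteins and represses AP-1 elements, and it lies 121.8 kb downstream of Fos on chromosome 12. Jdp2 had 441, 384 and 375 counts in the order of the WAS replicates and 613, 543 and 584 counts in that of the controls, or 41.0 ± 3.16 CPM (SD, n = 3) against 56.4 ± 3.55 CPM (SD, n = 3). Its groups did not overlap, with a log2 ratio of -0.50 (SE 0.10, adjusted p = 0.477 by edgeR with Benjamini-Hochberg adjustment), and all WAS-labelled libraries, replicate 2 included, lay below the controls. Atf6, a factor of the unfolded protein response, had a log2 ratio of -0.35 (SE 0.14), and its groups overlapped. The most abundant genes of the list were Atf4, at 297.9 ± 28.8 CPM (SD, n = 3) in WAS-labelled libraries against 308 ± 5.06 CPM (SD, n = 3), and Nfe2l1, with a log2 ratio of -0.16 (SE 0.084).

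Among 21 regulators that act on the Fos promoter, all were tested, with 0 higher (3.85% of all genes) and 4 lower (3.4% of all genes), and a median log2 ratio of -0.071. Mef2c, a calcium-regulated factor that binds MEF2 sites, had 18968, 18875 and 16479 counts in WAS-labelled libraries against 26769, 26416 and 21132 in the controls, a log2 ratio of -0.41 (SE 0.10). Camk2a, the kinase of excitatory synapses, was at -0.33 (SE 0.083) and Mkl2, a coactivator of serum response factor, at -0.36 (SE 0.10), both with groups that did not overlap. The adjusted p was 0.477 for Mef2c and Camk2a and 0.518 for Mkl2. Cortical markers were at 500 to 536 CPM in WAS-labelled libraries against 527 to 649 CPM in the controls (6 genes summed, 2 lower and 0 higher at an unadjusted p under 0.05), and neuronal markers at 4443 to 5237 CPM against 5307 to 5834 CPM (6 genes, 3 lower and 0 higher). Whether these differences in tissue content bear on Mef2c and Camk2a was not tested.

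Of 27 kinases, scaffolds and phosphatases of the MAP kinase pathways to Jun and Fos, 0 were higher and 2 lower, or 7.41% in either direction beside 7.24% of all genes, with a median of 0.010. Map3k10, an upstream kinase of JNK, had 351, 316 and 312 counts against 465, 453 and 441, a log2 ratio of -0.43 (SE 0.10, adjusted p = 0.477). Mapk10, the JNK form enriched in neurons, was at -0.22 (SE 0.094). Of 15 ubiquitin ligases, mRNA decay factors and corepressors acting on AP-1, 1 was lower and 0 higher, or 6.67% beside the same 7.24%. This was Fbxw7, part of a ubiquitin ligase for phosphorylated c-Jun, with 5306, 5497 and 5707 counts against 6850, 7341 and 6554 and a log2 ratio of -0.29 (SE 0.081, adjusted p = 0.514). Ncor1, a corepressor, was at -0.05 (SE 0.077).

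Of 26 genes known as targets of AP-1 in neurons or other cells, 22 were tested, with 2 higher (3.85% of all genes) and 1 lower (3.4% of all genes) and a median of -0.018. The higher ones were Th and Nqo1. Th, tyrosine hydroxylase of catecholamine neurons, had 75, 43 and 146 counts against 13, 19 and 34, a log2 ratio of 2.01 (SE 0.46, adjusted p = 0.477). It is also one of the midbrain markers whose levels stood apart in these libraries. Nqo1, a quinone reductase, had 21, 18 and 22 counts against 9, 10 and 13 (log2 ratio 0.95, SE 0.41). Cck, cholecystokinin, was at -0.27 (SE 0.095) with overlapping groups, and Gria2, the most abundant gene of the list, at -0.09 (SE 0.087). Penk, which encodes proenkephalin and is itself one of the striatal markers, was at 23.8, 423 and 86.3 CPM in WAS-labelled libraries against 206, 240 and 251 CPM.

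Of 18 rapid-response transcription factors outside AP-1, all tested, 5 were higher (3.85% of all genes) and 4 lower (3.4% of all genes) at an unadjusted p under 0.05 by edgeR, 0 passed an adjusted p of 0.05, and the median was 0.20. Egr1, a zinc-finger factor induced by the same kinases as Fos, was lower, with a log2 ratio of -0.42 (SE 0.10, adjusted p = 0.477). The stress-responsive Ier5 was at -0.38 (SE 0.12), and Nr4a2, a nuclear receptor, at 0.65 (SE 0.20, adjusted p = 0.539). WAS replicate 2 lay with the controls for Nr4a2, at 1338 counts against 2901 and 2797 in the other WAS-labelled libraries, whereas all WAS-labelled libraries lay below the controls for Egr1.

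**Figure D5:**
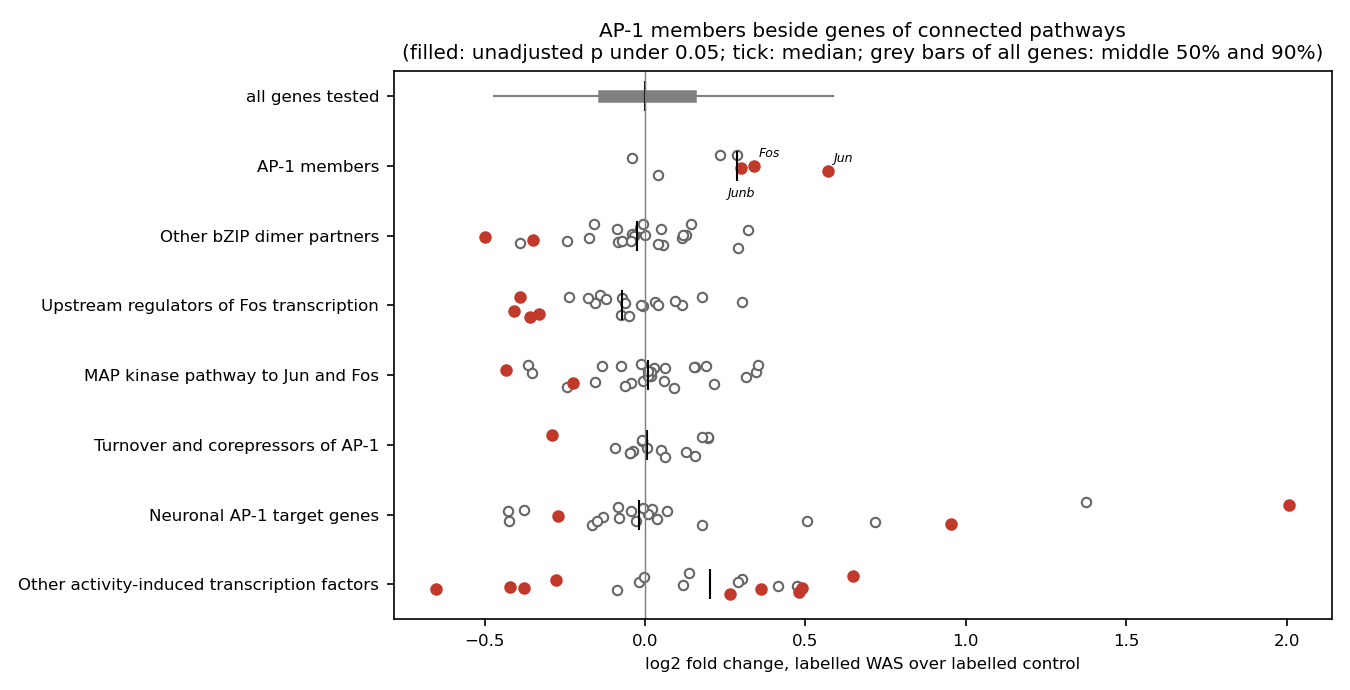
Log2 fold change of WAS-labelled libraries over those labelled control for AP-1 members and the genes of 6 connected lists. Each point is a gene, filled where the unadjusted p is under 0.05, ticks are medians, and the grey bars give the middle 50% and 90% of all genes tested. The median of the AP-1 members is 0.29, and the filled points of the bZIP partners, Fos regulators, MAP kinase and turnover lists all lie below 0.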

How the data were processed

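RNA was read from the 3′ end with the QuantSeq kit in 6 libraries, 1 per mouse, as single reads of 75 bp. The deposited values are raw read counts per gene symbol. The authors made them with Bowtie2 and Bedtools coverage on mm10, keeping reads that aligned once or several times (tool versions and annotation are not given in the sources used here). The quantile normalization the study names had not been applied to these counts. Counts were scaled by TMM, and edgeR 4.0.16 (R 4.3.3) fitted a quasi-likelihood model with the group as its only term to 15239 entries whose mean log2(quantile-normalized count + 1) was at least 2. Benjamini-Hochberg adjustment ran over all 15239 entries. The SE is the log2 ratio over the root of the F statistic. The biological coefficient of variation was 14.0%. The 44 repeats of a symbol were kept as separate entries. The scripts were tested on simulated counts.

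Members and lists were chosen with earlier results of these data known, so lists are described by counts and medians. The text names, for every list, its 2 genes of highest mean CPM and those under an unadjusted p of 0.05, at most the 3 smallest. For each member it names the 3 genes with the highest r. Penk was added after its values were seen. A gene that the rule names in the MAP kinase list is not reported here. Cop1 was found under its older symbol Rfwd2. Promoters are RefSeq windows, and transcripts and loci are from GENCODE M21. Alternatives were total-count scaling, DESeq2 1.42.0, limma 3.58.1 on quantile-normalized log2 counts, other filters, GC offsets, a replicate block and each library left out. No exact permutation test was run on single values, since 3 against 3 libraries cannot give a p below 0.1.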

Additional observations from a re-analysis of the deposited data

How the results depend on the processing

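The number of members with an unadjusted p under 0.05 was 3, and it was also 3 with total-count scaling, DESeq2, filterByExpr, no filter on low counts, GC offsets and the replicate block, alone or with GC offsets. It was 1 with limma on quantile-normalized log2 counts (5.70% of all genes) and 1 to 5 when single libraries were left out (4.09% to 13.7% of all genes). With WAS replicate 2 alone against the controls it was 0 (5.34% of all genes), but this library was picked after it was seen to lie near the controls, and a single library has little power, so that count says nothing about stability. At an adjusted p of 0.05 the count was 0 and became 1 with DESeq2 (Jun, adjusted p = 0.0452, among 31 genes) and 0 to 1 when single libraries were left out. Members whose groups did not overlap numbered 3 on library totals, 1 after TMM scaling, 1 after quantile normalization (5.83% of all genes in that direction) and 3 to 5 when single libraries were left out, which raised the share of all genes from 8.42% to between 12.8% and 18.4%. The log2 ratios of Jun, Junb, Fos and Fosb stayed above 0 in each of the 15 alternatives, with Fosb between 0.14 and 0.39 and Fos between 0.20 and 0.44 when single libraries were left out. Fosl2 turned to -0.018 with WAS replicate 2 alone. When single libraries were left out, Jund ran from -0.15 to 0.062 and Fosl1 from -0.16 to 0.29. The cause of these shifts was not tested.

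The replicate numbers did not pair the samples by the rule used, which asked for each pair's correlation of deviations from the group means to exceed 0.1. It was 0.088, 0.115 and 0.102 for numbers 1, 2 and 3, although each library correlated best with its own number. The replicate block left the count of members at 3 at an unadjusted p under 0.05 and gave 49 genes in place of 0 at an adjusted p of 0.05 over the whole table. Jun was not among the 49, with an adjusted p = 0.0793 by edgeR with the block, against 0.496 without it. Among the members, depth limited Fosl1 and the small separations of Junb and Fos.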
